A study of Mus musculus with 8 samples.

Results

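The Hox genes encode homeodomain transcription factors, and 33 of them were measured in forepaw skin, out of 30652 genes measured in all. They were taken by symbol from the array annotation, as every gene named Hoxa, Hoxb, Hoxc or Hoxd followed by a number alone, with antisense genes left out. Each had a probe set of its own, with 8 in the HoxA cluster, 9 in HoxB, 9 in HoxC and 7 in HoxD. Hoxa7, Hoxa9, Hoxb4, Hoxd3 and Hoxd4 were named only on probe sets shared with other genes, so these 5 were not analysed here.

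The skin came from C57Bl/6 mice aged 8 weeks, with 1 array per mouse. The 4 groups of 2 mice each were male and female mice wild type (WT) at Krt16 with normal skin, and male and female Krt16 null littermates with paw lesions. Krt16 encodes a keratin of palm and sole epidermis and of stressed epidermis, and in the null allele a bacterial LacZ gene stands in place of its coding sequence in every cell of the animal. All null skin was lesional and all WT skin normal, so the loss of Krt16 and the lesion cannot be told apart.

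Hox genes lie in 4 clusters and are numbered by paralog group from the anterior end of a cluster to its posterior end. In the embryo they are switched on in that order along the body and, for the HoxA and HoxD clusters, along the growing limb, where the posterior groups mark the hand and foot. Adult skin keeps part of this code: dermal fibroblasts carry Hox patterns that differ by body site, and Hoxc13 acts in hair and nail formation.

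The posterior genes Hoxa13 and Hoxd13 are the pair most closely tied to the hand and foot, so the sequence upstream of each is shown. Each line gives the 250 bases before the RefSeq start site, read 5′ to 3′ on the gene's strand. Capitals mark matches on either strand to the CCAAT box (CCAAT), the GC box bound by Sp1 (GGGCGG) and the TATA box (TATAAA), and overlapping matches run together. In assembly GRCm38.p6 the Hoxa13 stretch is chr6:52260881-52261130 on the minus strand and the Hoxd13 stretch is chr2:74667975-74668224 on the plus strand.
Hoxa13: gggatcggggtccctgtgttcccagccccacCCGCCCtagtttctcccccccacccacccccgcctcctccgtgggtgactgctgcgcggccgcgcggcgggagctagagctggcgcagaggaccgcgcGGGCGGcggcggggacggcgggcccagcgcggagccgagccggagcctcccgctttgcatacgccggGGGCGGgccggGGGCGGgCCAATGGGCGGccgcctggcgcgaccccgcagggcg
Hoxd13: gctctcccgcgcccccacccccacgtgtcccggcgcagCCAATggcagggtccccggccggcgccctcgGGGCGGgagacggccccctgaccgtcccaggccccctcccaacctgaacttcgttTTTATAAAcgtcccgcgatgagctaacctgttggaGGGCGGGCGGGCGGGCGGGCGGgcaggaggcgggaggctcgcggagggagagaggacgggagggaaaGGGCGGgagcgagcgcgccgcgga
Both stretches are rich in G and C, at 80.0% with 35 CpG pairs for Hoxa13 and 74.4% with 31 CpG pairs for Hoxd13. The median over all 32851 RefSeq promoters in the table was 52.4% with 6 CpG pairs. RefSeq promoters were found for 17 of the 33 Hox genes, 19 promoters in all, with a median of 13 CpG pairs and a range from 2 to 35. CCAAT occurred in 63.2% of the Hox promoters and 33.8% of all promoters, and GGGCGG in 47.4% against 32.7%. TATAAA occurred in 15.8% against 12.4%. TTTATGG and TTTACGA, which posterior Hox proteins can bind, occurred in 0 and 1 of the 19, against 2.43% and 0.478% of all promoters. These matches describe the letters only.

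On every array the median signal was 3.97 to 4.03 on the log2 scale, and positive control probe sets exceeded negative ones by 3.34 to 3.54 in the median. Epidermal keratinocyte markers were above the median of the negative controls on all 8 arrays for 15 of 15 genes, and dermal fibroblast markers for 16 of 16. Skeletal muscle markers were above it for 22 of 22. Krt16 itself read 8.48, 8.20, 7.05 and 9.66 in male WT 1, male WT 2, female WT 1 and female WT 2, and 6.83, 6.87, 6.89 and 6.99 in male null 1, male null 2, female null 1 and female null 2. The groups did not overlap, but female WT 1 lay close to the null arrays. The difference was -1.45 (standard error 0.44, adjusted p = 0.0616 by limma with Benjamini-Hochberg adjustment), -1.45 with pairs as a block (adjusted p = 0.0285) and -1.98 without female WT 1 (adjusted p = 0.00078). Whether this probe set lies in the replaced part of the gene is not given in the sources used here.

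Which Hox genes stood above background was read against several limits. By the limit set first, the 95th percentile of the negative controls, 0 of 33 Hox genes were detected. Most HoxC genes, with Hoxa13, Hoxd8, Hoxd11 and Hoxd13, exceeded each of the laxer limits, 1 of which was chosen after seeing the data. A laxer limit was the median of the negative control probe sets of the same array (4.26 to 4.46). On all 8 arrays 13 of 33 Hox genes exceeded it, against 53.2% of all genes. They were 8 of the 9 HoxC genes (Hoxc4, Hoxc6, Hoxc8, Hoxc9, Hoxc10, Hoxc11, Hoxc12 and Hoxc13), 3 of the 7 HoxD genes (Hoxd8, Hoxd11 and Hoxd13), 2 of the 8 HoxA genes (Hoxa10 and Hoxa13) and 0 of the 9 HoxB genes. By paralog group, 3 of 4 measured members of group 13, 1 of 2 of group 12, 2 of 3 of group 11 and 2 of 3 of group 10 were among them. In groups 9, 8, 6 and 4 the counts were 1 of 3, 2 of 3, 1 of 3 and 1 of 2. None of the 10 measured members of groups 1, 2, 3, 5 and 7 was among them.

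The number of Hox genes counted as detected changed with the background chosen. The negative controls spread widely, and above their 95th percentile (7.26 to 7.43) no Hox gene stood on all arrays, against 12% of all genes. Genes of olfactory and vomeronasal receptors, most of which are silent outside sensory tissue, gave a lower background: 28 of 33 Hox genes exceeded their 95th percentile (3.61 to 3.71) on all 8 arrays, against 65.6% of all genes. That was 6 of 8 HoxA, 7 of 9 HoxB, 9 of 9 HoxC and 6 of 7 HoxD genes. It included anterior genes: 2 of 2 measured members of group 1, 1 of 2 of group 2, 2 of 2 of group 3 and 2 of 2 of group 4. Of the central group 5 it included 3 of 3. By this limit HoxB and anterior genes were thus counted that the negative control median left out. Of the 33, 12 exceeded their 99th percentile (4.54 to 4.78), against 48.3%. Those 12 were the 8 HoxC genes above, Hoxa13, Hoxd8, Hoxd11 and Hoxd13. The Hoxc6 WT mean of 7.0 ± 0.07 (SD, n = 4) was reached by 0 of the 1722 receptor genes, and neither were those of Hoxc9 (6.45 ± 0.08, n = 4) and Hoxc12 (6.77 ± 0.20, n = 4). Probe sets were compared with these background sets only, and no order is read between Hox genes.

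**Figure D1:**
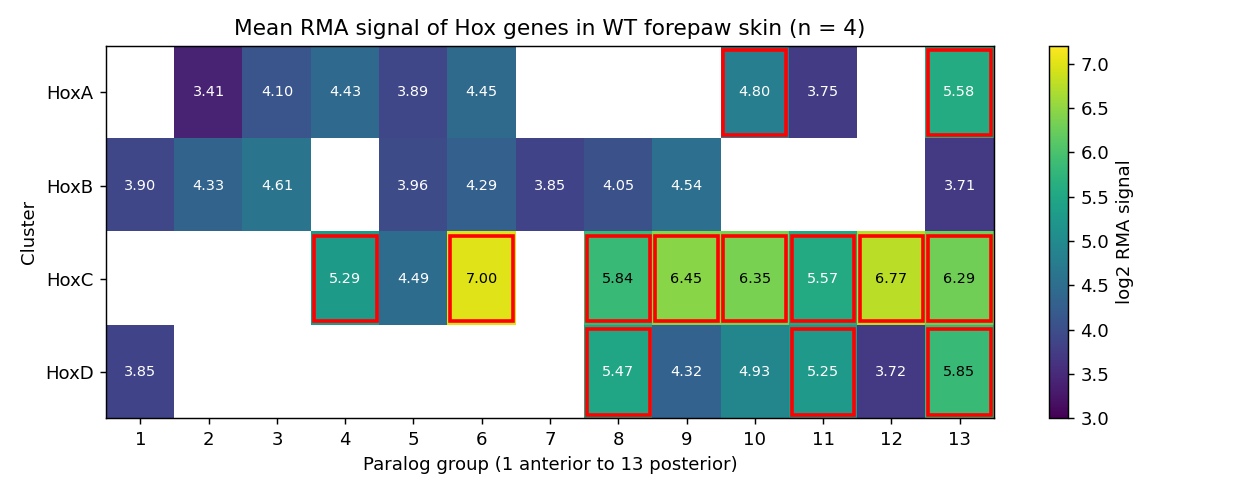
Mean log2 signal of each measured Hox gene in 4 WT arrays, with clusters as lines and paralog groups as columns; colour and number give the mean, and a red frame marks the 13 genes above the negative control median on all 8 arrays, and white marks a position with no value here. Framed genes are all HoxC genes but Hoxc5, with Hoxa10, Hoxa13, Hoxd8, Hoxd11 and Hoxd13; colours of different genes are not comparable, since their probes differ.

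In null skin 5 Hox genes fell and 0 rose. By limma with Benjamini-Hochberg adjustment, at an adjusted p under 0.05, the genes that fell were Hoxc4, Hoxc6, Hoxc8 and Hoxc12 of the HoxC cluster and Hoxa13 of the HoxA cluster. That is 15.2% of the 33, and of all 30652 genes 5.99% fell and 7.03% rose. The median Hox difference was -0.05 (range -0.75 to 0.17), and that of all genes was 0.01. Hox genes with all null arrays below all WT arrays numbered 4, against 8.77% of all genes, and those with all null arrays above numbered 0, against 10.1%. At an unadjusted p under 0.05, 8 were lower and 0 higher, against 12% and 14.5% of all genes.

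**Figure D2:**
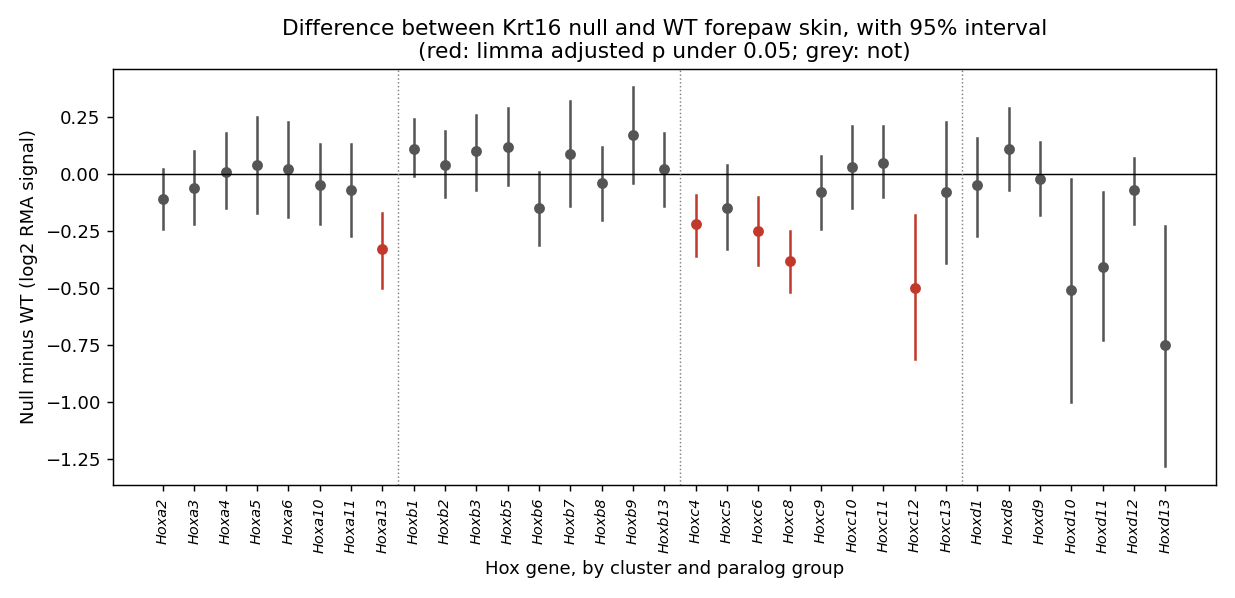
Null minus WT difference (log2 signal) of each of the 33 Hox genes with its 95% interval from limma; red marks an adjusted p under 0.05 and dotted lines separate the clusters. The 5 red genes lie between -0.50 and -0.22, Hoxd10, Hoxd11 and Hoxd13 lie between -0.75 and -0.41 with wide intervals, and the HoxB genes lie between -0.15 and 0.17.

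Hoxc8, a central paralog that patterns the embryonic trunk, had the smallest p of the 33. Its log2 signal was 5.73 in male WT 1, 5.87 in male WT 2, 5.80 in female WT 1 and 5.95 in female WT 2. In null skin it read 5.43 in male null 1, 5.45 in male null 2, 5.46 in female null 1 and 5.49 in female null 2. All null arrays lay below all WT arrays, and the null arrays lay close together. Hoxc8 fell by 0.38 (standard error 0.06, 95% interval -0.52 to -0.25, adjusted p = 0.00468), which is 23.2% on the linear scale. The call held without each of the 8 arrays in turn.

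Hoxc4 and Hoxc6, which act at neck and upper trunk levels in the embryo, fell by less. Hoxc6 read 7.10, 6.99, 6.92 and 7.01 in male WT 1, male WT 2, female WT 1 and female WT 2, against 6.69, 6.65, 6.82 and 6.85 in the null arrays in the same order. The groups did not overlap, though female null 2 came close to female WT 1. Hoxc6 fell by 0.25 (standard error 0.07, 95% interval -0.40 to -0.10, adjusted p = 0.0376). Hoxc4 read 5.22, 5.28, 5.25 and 5.42 in WT and 5.03, 4.97, 5.12 and 5.15 in null skin, again without overlap. Hoxc4 fell by 0.22 (standard error 0.06, 95% interval -0.36 to -0.09, adjusted p = 0.0371). Both calls were lost when any array other than female WT 1 was left out, at adjusted p from 0.0588 to 0.121 for Hoxc4 and from 0.0524 to 0.122 for Hoxc6.

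Hoxc12, a posterior gene whose neighbour Hoxc13 acts in hair and nail formation, had the largest fall of the 5. It read 6.98, 6.71, 6.52 and 6.86 in male WT 1, male WT 2, female WT 1 and female WT 2, and 6.11, 6.14, 6.17 and 6.66 in male null 1, male null 2, female null 1 and female null 2. Female null 2 stood apart from the other null arrays and above female WT 1, so the groups overlapped. Hoxc12 fell by 0.50 (standard error 0.14, 95% interval -0.81 to -0.18, adjusted p = 0.0471). The call was lost without male WT 1, male WT 2, male null 1, male null 2, female WT 2 or female null 1, at adjusted p from 0.0965 to 0.138. It was also lost with repeated quantile normalization (0.0548), with each array centred on its median (0.0508), with a robust prior (0.0542) and with all probe sets tested (0.0666).

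The other 5 HoxC genes did not pass the test. Hoxc13 read 6.60, 6.30, 5.85 and 6.38 in the WT arrays and 6.24, 6.07, 6.30 and 6.23 in the null arrays, a difference of -0.08 (adjusted p = 0.795). Its 4 WT arrays came in the same order as those of Hoxc12, with male WT 1 highest, then female WT 2, male WT 2 and female WT 1. Hoxc5 differed by -0.15, Hoxc9 by -0.08, Hoxc10 by 0.03 and Hoxc11 by 0.05. Over the whole cluster, 4 of 9 fell, 7 of 9 differences were below 0 and the median was -0.15. Of all genes 5.99% fell, 13896 of 30652 differences were below 0 and the median was 0.01.

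Hoxa13, needed for the formation of digits, fell in null skin. It read 5.62, 5.46, 5.77 and 5.49 in male WT 1, male WT 2, female WT 1 and female WT 2, and 5.25, 5.24, 5.29 and 5.21 in the null arrays in the same order. The groups did not overlap, and the null arrays were closer together than the WT arrays. Hoxa13 fell by 0.33 (standard error 0.07, 95% interval -0.50 to -0.17, adjusted p = 0.0192), which is 20.6% on the linear scale. Its call was lost without male WT 1 (0.0659), male null 2 (0.0573), female null 1 (0.055) or female null 2 (0.0591). The other 7 HoxA genes did not pass, and the cluster's median was -0.05.

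All 5 genes kept their call without female WT 1. With all probe sets tested 2 of them did, Hoxc8 and Hoxa13. The count of Hox genes that fell was 1 without male WT 1, 2 without male WT 2, 2 without male null 1, 1 without male null 2, 3 without female WT 2, 1 without female null 1 and 2 without female null 2. The count over all genes dropped too, from 1835 with all arrays to between 835 (without male null 2) and 1735 (without male null 1) in these fits. In each of 17 alternative settings the 5 genes had differences below 0, but these fits reuse the arrays in which the genes were called.

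Hoxd13, Hoxd11 and Hoxd10, posterior HoxD genes that pattern the limb, were lower in the mean but did not pass the test. Hoxd13 read 6.07, 5.65, 6.42 and 5.26 in male WT 1, male WT 2, female WT 1 and female WT 2, and 5.30, 4.78, 5.02 and 5.29 in male null 1, male null 2, female null 1 and female null 2. Female WT 2 lay among the null arrays. The difference of -0.75 (standard error 0.23, 95% interval -1.28 to -0.23, adjusted p = 0.0656) was the largest in size of the 33. Hoxd13 passed at -0.75 with same-numbered pairs as a block (adjusted p = 0.0412), without the sex term (0.048) and, at -1.0, without female WT 2 (0.0122).

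Hoxd11 read 5.42, 5.07, 5.55 and 4.96 in the WT arrays and 5.10, 4.69, 4.77 and 4.82 in the null arrays, with overlap. Its difference was -0.41 (standard error 0.14, 95% interval -0.73 to -0.08, adjusted p = 0.101), and with pairs as a block it passed (adjusted p = 0.0377). Hoxd10 read 5.21, 4.59, 5.43 and 4.47 in WT and 4.73, 4.16, 4.36 and 4.41 in null skin, also with overlap. Its difference was -0.51 (standard error 0.22, 95% interval -1.0 to -0.02, adjusted p = 0.17). In all 3 genes female WT 1 was the highest of the WT arrays, followed by male WT 1, male WT 2 and female WT 2.

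The other HoxD genes differed little in the mean: Hoxd8 by 0.11, Hoxd9 by -0.02, Hoxd12 by -0.07 and Hoxd1 by -0.05. Hoxd12, the neighbour of Hoxd13 and Hoxd11 in the cluster, was not above the negative control median on all arrays. Over the HoxD cluster 0 of 7 genes passed, with a median of -0.07.

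**Figure D3:**
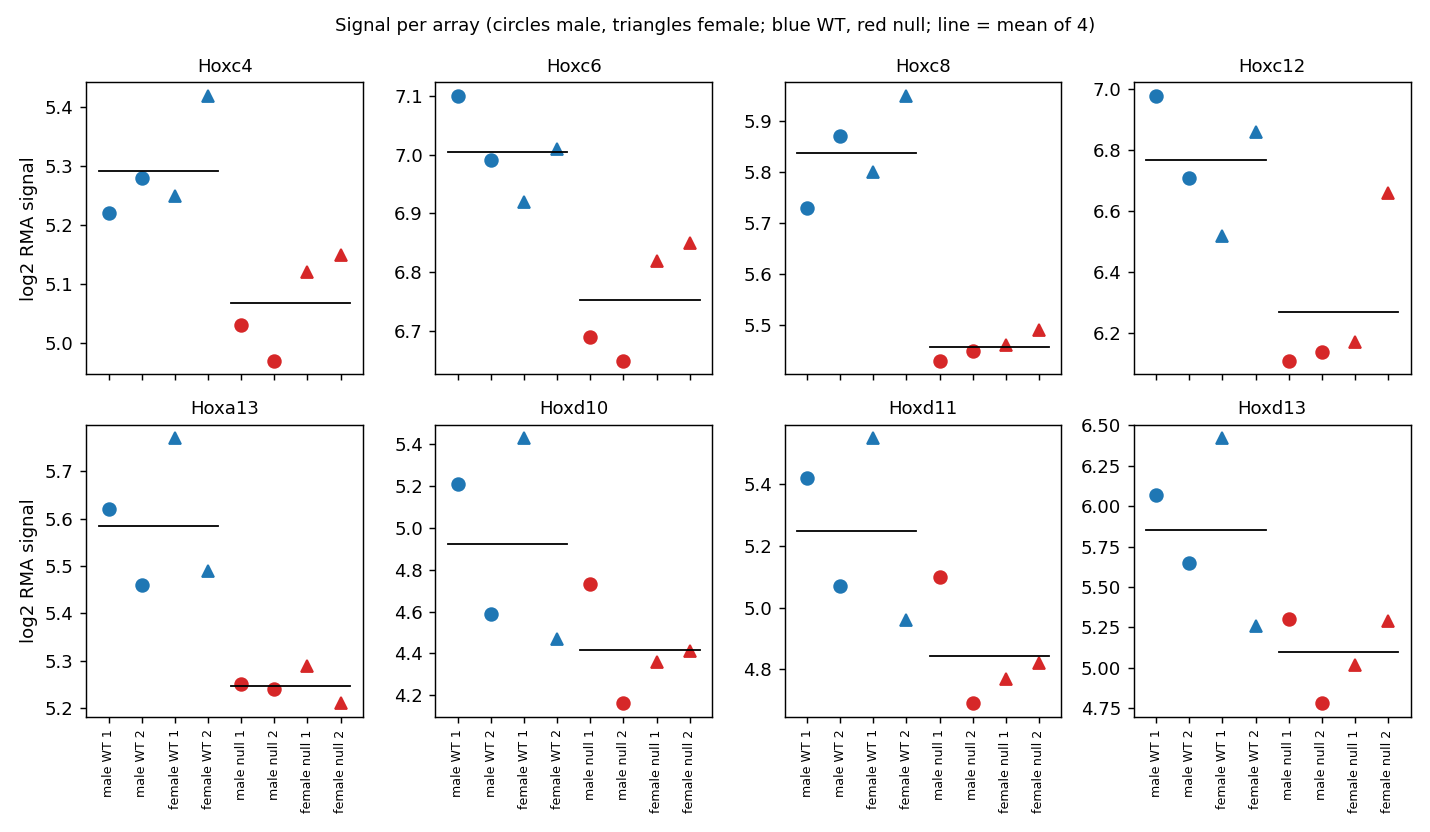
Log2 signal of 8 Hox genes on each of the 8 arrays; circles are male and triangles female mice, blue is WT and red null, and the line is the mean of 4. Null arrays lie below all WT arrays for Hoxc4, Hoxc6, Hoxc8 and Hoxa13, while Hoxc12 and the 3 HoxD genes overlap; each panel has its own axis, which does not start at 0.

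The HoxB genes, none of them above the negative control median on all arrays, showed no call. Their 9 differences ran from -0.15 (Hoxb6) to 0.17 (Hoxb9) with a median of 0.09, and their 95% intervals together spanned -0.31 to 0.38. The 25 Hox genes with an unadjusted p of 0.05 or above had differences from -0.15 to 0.17, intervals between -0.39 and 0.38 and adjusted p from 0.224 to 0.942. By position along the clusters, 1 of 8 anterior genes (groups 1 to 4), 2 of 10 central genes (groups 5 to 8) and 2 of 15 posterior genes (groups 9 to 13) fell, with medians of -0.02, -0.01 and -0.07. Of all genes 5.99% fell, with a median of 0.01.

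Muscle markers moved with genotype in these samples. Of 22 skeletal muscle genes, 18 fell and 0 rose, with a median of -0.88. Their mean log2 signal was 8.62 to 9.39 in WT and 7.86 to 8.37 in null arrays, without overlap, and the WT arrays came in the same order as those of Hoxd10, Hoxd11 and Hoxd13. With this mean as a covariate, which shares its direction with genotype, 0 Hox genes passed. Few genes of any kind did: of all 30652 genes 238 rose and 139 fell, against 2156 and 1835 without it. The Hoxd13 difference was then 0.22 (standard error 0.25, adjusted p = 0.809), Hoxd11 was at 0.21, Hoxd10 at 0.43 and Hoxa13 at -0.10 (adjusted p = 0.805). HoxC differences were below 0 in 9 of 9 genes, with a median of -0.34, among them Hoxc8 at -0.50 (adjusted p = 0.0768), Hoxc12 at -0.74 (0.228), Hoxc6 at -0.35 (0.223) and Hoxc4 at -0.34 (0.188). The standard errors of Hoxc8 and Hoxc12 were 0.11 and 0.26 in this fit, against 0.06 and 0.14 without the covariate. Krt16 itself was at -3.08 (standard error 0.57) with it, against -1.45 without it. As the muscle means of the genotypes do not overlap, this fit cannot give a difference at equal muscle content.

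Of 16 dermal fibroblast markers 3 fell and 1 rose, with a median of -0.12 and means of 7.38 to 7.81 in WT and 7.29 to 7.62 in null arrays. With that mean as a covariate 1 Hox gene passed, Hoxc8, at -0.42 (adjusted p = 0.0118). Of all 30652 genes 1530 rose and 920 fell in that fit. Hoxc4 at -0.25 (0.071), Hoxc6 at -0.28 (0.0674) and Hoxc12 at -0.62 (0.0523) had larger differences than without the covariate but did not pass. Hoxc5 was smaller, at -0.11 (0.621). Hoxa13 was smaller, at -0.25 (0.0975). Some genes of other marker lists were called as well, where of all genes 5.99% fell and 7.03% rose. The list means of the genotypes overlapped for keratinocyte, leukocyte and endothelial markers, but not for melanocyte markers. Of 15 epidermal keratinocyte genes 4 fell and 0 rose (means 10.56 to 10.76 in WT and 10.5 to 10.59 in null arrays). Of 7 melanocyte genes 5 rose (4.39 to 4.63 and 4.9 to 5.4), of 11 leukocyte genes 3 rose (4.88 to 5.2 and 5.09 to 5.24), and of 9 endothelial genes 3 rose (5.83 to 6.22 and 6.11 to 6.28). In the remaining lists no gene rose, and 2 of 8 smooth muscle and pericyte, 2 of 8 adipocyte and 1 of 7 Schwann cell and nerve genes fell. So did 1 of 10 eccrine sweat gland genes and 0 of 13 cartilage, tendon and bone genes. The part of these markers in the Hox differences was not tested. The part that muscle or fibroblast content has in any Hox difference was not tested beyond these covariates, and in whole skin fewer cells of a type and less RNA per cell cannot be told apart.

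**Figure D4:**
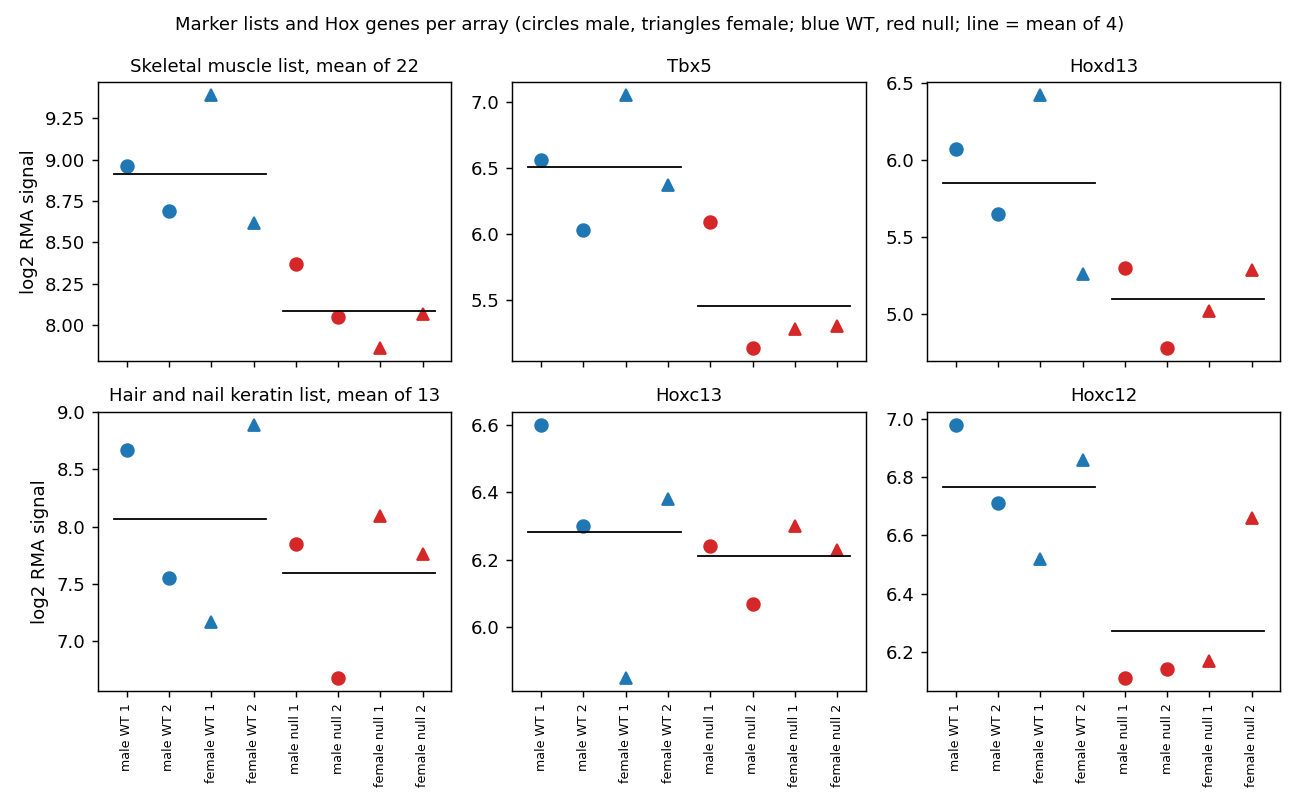
Log2 signal per array of the skeletal muscle list (mean of 22 genes), the hair and nail keratin list (mean of 13), Tbx5, Hoxd13, Hoxc13 and Hoxc12, with circles for male and triangles for female mice, blue for WT and red for null, and a line for the mean of 4. Female WT 1 is the highest of the WT arrays in the muscle list, Tbx5 and Hoxd13 and the lowest in the keratin list, Hoxc13 and Hoxc12; each panel has its own axis, which does not start at 0.

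For a difference between the sexes in the effect of genotype 0 of 33 Hox genes passed the interaction test, against 0.00652% of all genes. At an unadjusted p under 0.05 there were 2 Hox genes, against 4.25% of all genes. Hoxc9 differed by -0.22 in males and 0.07 in females (limma adjusted p = 0.973), and Hoxc10 by -0.13 and 0.19 (limma adjusted p = 0.973). Between the sexes themselves 0 of 33 Hox genes passed, against 0.0163% of all genes. At an unadjusted p under 0.05 there were also 0 Hox genes, against 5.0% of all genes.

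Hox proteins bind DNA with TALE homeodomain cofactors, of which 8 were measured and 1 fell. Pknox2 read 4.98 to 5.28 in WT and 4.45 to 4.72 in null arrays, without overlap. It fell by 0.54 (standard error 0.08, adjusted p = 0.00449), and the median of the 8 was -0.04.

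Among 26 transcription factors of limb identity and patterning 3 fell and 1 rose, with a median of -0.05. Tbx5, the factor that sets forelimb identity, read 6.56, 6.03, 7.05 and 6.37 in WT and 6.09, 5.13, 5.28 and 5.30 in null arrays, in the order used above. Male null 1 lay above male WT 2, so the groups overlapped. Tbx5 fell by 1.05 (adjusted p = 0.0254), but its call was lost without male WT 1 (0.0746), male null 2 (0.0851), female null 1 (0.0834) or female null 2 (0.0692). It was also lost with a robust prior (0.0714), and with the muscle covariate the difference was 0.02 (adjusted p = 0.991). Tbx15, which acts in limb and skin patterning, fell by 1.18 (adjusted p = 0.00273), and Lhx2, a factor of limb outgrowth and hair follicle stem cells, fell by 0.35 (adjusted p = 0.0128).

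Pitx1, which sets hindlimb identity, read 4.91, 4.93, 4.74 and 4.66 in WT and 5.13, 5.75, 5.46 and 5.33 in null forepaw skin. The groups did not overlap. Pitx1 rose by 0.61 (adjusted p = 0.0123). Tbx4, the other hindlimb factor, differed by -0.16 (adjusted p = 0.363). All 3 of Tbx5, Tbx4 and Pitx1 were above the negative control median on all 8 arrays, and since levels of different probe sets are not comparable, these genes do not separate a forelimb from a hindlimb label here.

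Hair and nail keratin genes and Foxn1, the programme in which Hoxc13 acts, varied widely within each genotype. Their mean log2 signal was 8.67, 7.55, 7.17 and 8.89 in the WT arrays and 7.85, 6.68, 8.09 and 7.76 in the null arrays, in the same order. Of 13 measured genes 0 passed, with a median of -0.61. Krt32 differed by -0.78 (adjusted p = 0.133) and Krt40 by -0.51 (adjusted p = 0.178). Both passed without female WT 1, at -1.14 (adjusted p = 0.0019) and -0.77 (adjusted p = 0.0045). Female WT 1 was also the lowest WT array for Hoxc12 and Hoxc13.

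Of 16 measured genes of distal limb signalling and of palm and sole skin, 3 fell and 1 rose. Krt9, the keratin of palm and sole epidermis, fell by 2.46 (adjusted p = 0.000699). The ligands Bmp4 (adjusted p = 0.000253) and Bmp2 (adjusted p = 0.00361) fell by 0.92 and 0.50. The ephrin receptor Epha4 rose by 0.48 (adjusted p = 0.0137). The median of the 16 was -0.05. With the muscle covariate Krt9 and Bmp4 kept their calls. The other calls were lost with it. Lhx2 then had a larger difference, of -0.55 (adjusted p = 0.0668). Differences were smaller for Bmp2 at -0.39 (0.253), Pitx1 at 0.41 (0.488), Pknox2 at -0.26 (0.419), Tbx15 at -0.42 (0.158) and Epha4 at 0.19 (0.7). With the fibroblast covariate the calls of Pitx1, at 0.47 (0.0605), and Epha4, at 0.36 (0.0617), were lost.

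The noncoding RNAs of the clusters include Hotair in HoxC and microRNAs, several of which target Hox messenger RNAs. Their mature sequences are shown because probe sets for their genes were on the array. RefSeq gives them with the seed (bases 2 to 8) in capitals. In GRCm38.p6, on the plus strand, miR-196a-5p lies at chr11:96265187-96265208 in the HoxB cluster and again at chr15:102973365-102973386 in HoxC, miR-615-3p at chr15:103014969-103014990 in HoxC and miR-10b-5p at chr2:74726074-74726096 in HoxD.
miR-196a-5p: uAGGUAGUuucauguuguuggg
miR-615-3p: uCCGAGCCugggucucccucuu
miR-10b-5p: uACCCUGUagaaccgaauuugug
The 3 seeds differ, and the mature miR-196a-5p of both loci is the same. Of 14 noncoding genes measured, 0 passed, their differences ran from -0.14 to 0.17 with a median of 0.02, and 3 were above the negative control median on all 8 arrays. The miRNA gene probe sets differed by -0.07 (Mir196a-1), 0.17 (Mir196a-2), 0.16 (Mir615, adjusted p = 0.234) and 0.01 (Mir10b). Hotair read 5.44 to 6.08 in WT and 5.49 to 6.05 in null arrays, and Hoxb5os differed by 0.10 (adjusted p = 0.432). Whether these probe sets read the mature miRNA is not given in the sources used here.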

How the data were processed

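Forepaw skin RNA of 8 mice was labelled with the Affymetrix WT PLUS kit, per the labels' protocols. The deposited values are log2 signals that the authors produced using Partek and RMA, per the submitters' processing notes; their versions, settings and genome build are not stated there. The tables hold 72688 probe sets, of which 6732 are controls and 31196 carried exactly 1 gene through the array annotation, with symbols updated through RefSeq (GRCm38.p6). The brightest probe set by its mean over 8 arrays stood for each of 434 genes with several, giving 30652 genes.

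Differences were fitted over all genes with limma 3.58.1 in R 4.3.3 (lmFit, eBayes with an intensity trend, sex as covariate, 5 residual degrees of freedom) and a gene passed when its p, adjusted by Benjamini-Hochberg, was under 0.05. The interaction came from 4 group means with 4 residual degrees of freedom, which share 1 estimate of the spread. Detection was first defined as all arrays of a genotype above the 95th percentile of the negative control probe sets, with other limits as alternatives. The limit at the 99th percentile of receptor genes was chosen after seeing the data. The fit was tested on simulated data first.

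The named genes are all measured Hox genes, Krt16, Tbx5, Tbx4, Pitx1 and, from each list, the 3 largest rises and 3 largest falls called, or the 2 smallest p where none was; Hotair and the other microRNA genes were added after their values were seen. Members and lists were chosen with earlier results of these data known. Same-numbered WT and null mice of 1 sex deviated together after removal of group means (correlation across genes 0.317 in males and 0.115 in females), both over the limit of 0.1 for the 4 pairs, so a fit with pairs as a block is given where it changes a call. With 2 mice per group the deviations from the group mean mirror each other, so swapping the numbers in 1 group only flips the sign. The correlation therefore cannot show that equal numbers mark pairs. The labels number the mice but do not say that a number marks a litter. Tables were prepared with Python 3.11.15. Arrays have no read depth, and their number limits the precision. An item withheld from the text is not reported here.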

Additional observations from a re-analysis of the deposited data

Results flagged for a closer look

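Among 108 groups of 4 arrays of the genes named here, 66 of them of Hox genes, 3 held an array far from the rest by Dixon's test, and chance marks about 1 in 20 groups. All 3 were null arrays. Female null 2 was the highest for Hoxc12, at 6.66 against 6.11 to 6.17 on the other null arrays. It was also the highest for Hoxa2, at 3.39 against 3.26 to 3.28. Male null 2 was the lowest for Hoxa11, at 3.60 against 3.71 to 3.72. Hoxa2 and Hoxa11 were below the negative control median on all 8 arrays.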

How the results depend on the processing

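The 17 alternatives refit the arrays in which the Hox genes were called, so they are no independent support. The 5 Hox genes that fell kept their direction in 85 of 85 of these fits. Their number was 2 with all probe sets tested, 0 with the muscle and 1 with the fibroblast covariate, and 1 to 5 when 1 array was left out. With pairs as a replicate block it was 7, and the counts over all genes were 2532 higher and 2008 lower; the block changed the calls of Hoxd11, Hoxd13 and Krt16 and of no other gene named here. Over all genes, 2156 rose and 1835 fell; with the muscle covariate these were 238 and 139, with the fibroblast covariate 920 fell, and with 1 array left out 1192 to 2278 rose and 835 to 1857 fell. The median Hox difference was -0.24 over the 12 Hox genes left after dim genes were removed, and 0.06 with the muscle covariate. Detection in WT skin was 0 Hox genes by the first limit, 15 above the negative control median, and 29 and 12 above the 95th and 99th percentile of receptor genes; in null skin the counts were 0, 16, 30 and 13. Over the Hox genes' own values 489 stayed on the same side of the p threshold, 28 of them with the opposite sign, 39 lost and 4 gained a call, and 8 moved by more than the spread. Tbx5 was at 0.02 with the muscle covariate. The muscle mean separates the genotypes by itself, and each covariate takes a degree of freedom. Why calls and differences changed in the covariate fits was not tested. Probe sets near or under background limit the size of any difference that can be read, which touches 20 of 33 Hox genes by the negative control median. By the first limit, the 95th percentile of the negative controls, it touches all 33.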

Other observations

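Genes flanking the 4 Hox clusters did not move as a body: of 16 measured, 2 rose and 2 fell, with a median of 0.03. Skap2, beside HoxA, rose by 0.51 (limma adjusted p = 0.0204) and Mtx2, beside HoxD, by 0.20 (0.0314). Calcoco1 and Atp5g2, from the HoxC side, fell by 0.31 (0.0125) and 0.28 (0.0263). Calcoco1 alone of these kept its call without each array in turn. The call of Skap2 was lost without male WT 1, male WT 2, male null 1, male null 2 or female null 1 (adjusted p 0.0541 to 0.0662). That of Mtx2 was lost when any array except female WT 2 was left out (0.0578 to 0.0954), and that of Atp5g2 without female WT 2, male WT 2, male null 2 or either female null array (0.0573 to 0.091). With all probe sets tested the Mtx2 call was lost as well (0.066).

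Polycomb and Trithorax proteins keep Hox loci silent or active. Of 19 measured, 2 fell and 0 rose, with a median of -0.05. Ezh1, a Polycomb methyltransferase, fell by 0.38 (adjusted p = 0.00879). Rnf2, a Polycomb ubiquitin ligase, fell by 0.21 (0.0394), a call lost when any array was left out (0.0599 to 0.115). Repeated quantile normalization (0.0536) and centring each array on its median (0.0514) also lost the Rnf2 call. So did leaving out the sex term (0.0705) and testing all probe sets (0.0762). With the muscle covariate Skap2 kept its call, at 0.98 (0.0138). Calcoco1 lost its call at a larger difference of -0.39 (0.158). Mtx2 at 0.12 (0.691), Atp5g2 at -0.17 (0.662), Ezh1 at -0.25 (0.445) and Rnf2 at -0.13 (0.684) lost theirs at smaller ones. With the fibroblast covariate Mtx2 at 0.17 (0.134), Atp5g2 at -0.21 (0.13) and Rnf2 at -0.18 (0.16) lost theirs.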
